A study of Mus musculus with 17 samples.

Results

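The constitutive proteasome is represented here by 31 genes: 7 alpha subunits (Psma1 to Psma7) and 7 constitutive beta subunits (Psmb1 to Psmb7) of the 20S core, the 6 ATPases (Psmc1 to Psmc6) of the 19S regulatory particle, and 11 further 19S base and lid subunits (Psmd1 to Psmd4, Psmd6 to Psmd8 and Psmd11 to Psmd14). They were chosen by gene name, with earlier results of these data known, and all 31 were found by Ensembl gene ID among the 43430 gene IDs of each count table. The genes lie on 14 chromosomes. RNA was measured in 17 libraries of alveolar type 2 (AT2) cells, which make the surfactant that lines the alveoli, sorted by flow cytometry from C57BL/6J mice aged 2 months. In the first experiment, poly(A) libraries were made from 3 ng of RNA of otherwise untreated (naive) mice 24 h after vehicle (saline in the titles, 4 libraries) or ISRIB (4 libraries). ISRIB is a small molecule that acts on the translation factor eIF2B and counters the integrated stress response. In the second, total-RNA libraries were made from 0.35 ng of RNA of naive mice (4 libraries) and of mice given bleomycin 14 days earlier (5 libraries). Bleomycin injures the alveolar epithelium and is used to model lung fibrosis. All 9 libraries of the second experiment also carry the vehicle label. The kits differ, so each comparison was made within its own experiment. The labels do not say whether the libraries of a group came from separate mice, so p-values measure the spread between these libraries, which may be technical.

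The 26S proteasome degrades proteins tagged with ubiquitin. The 19S particle binds the ubiquitin chain, the lid subunit Psmd14 cleaves it off, the ring of ATPases unfolds the protein and threads it into the 20S core, and the beta subunits Psmb5, Psmb6 and Psmb7 cut it inside the chamber. The alpha rings form the gate of that chamber. In many cells the subunit genes are transcribed together, and the transcription factor NFE2L1 raises them when proteasome activity falls. NFE2L1 and the related NFE2L2 bind antioxidant response elements. Secretory cells such as AT2 cells use this pathway to degrade misfolded surfactant protein C and other proteins retrieved from the endoplasmic reticulum.

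Because the estimates of all 31 subunit genes lay above 0 after bleomycin, with 19 genes past the test, the promoters of 4 of them are shown, the subunit of each structural class with the lowest p among those with a single promoter entry. Each is the RefSeq window from 250 bases before to 50 bases after the gene start (GRCm38.p6), on the gene's strand, at chr2:180042415-180042714 for Psma7 (minus strand), chr14:54617946-54618245 for Psmb5 (minus), chr12:100109952-100110251 for Psmc1 (plus) and chr16:20651402-20651701 for Psmd2 (plus). Capitals mark a match on either strand to 1 of 3 motifs: the antioxidant response element TGACNNNGC, the CCAAT box or the ETS-family motif CCGGAAG.
Psma7: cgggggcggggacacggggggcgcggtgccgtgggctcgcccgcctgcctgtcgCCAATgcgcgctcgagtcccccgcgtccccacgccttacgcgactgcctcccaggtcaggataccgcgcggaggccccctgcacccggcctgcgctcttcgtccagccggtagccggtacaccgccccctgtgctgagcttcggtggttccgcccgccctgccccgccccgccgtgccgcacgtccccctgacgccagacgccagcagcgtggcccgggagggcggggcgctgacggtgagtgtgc
Psmb5: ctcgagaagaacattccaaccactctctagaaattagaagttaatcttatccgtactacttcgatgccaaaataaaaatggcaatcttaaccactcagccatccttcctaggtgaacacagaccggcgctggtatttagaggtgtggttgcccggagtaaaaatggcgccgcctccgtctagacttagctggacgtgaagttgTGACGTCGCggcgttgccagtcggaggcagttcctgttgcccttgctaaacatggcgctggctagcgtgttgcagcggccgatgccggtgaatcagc
Psmc1: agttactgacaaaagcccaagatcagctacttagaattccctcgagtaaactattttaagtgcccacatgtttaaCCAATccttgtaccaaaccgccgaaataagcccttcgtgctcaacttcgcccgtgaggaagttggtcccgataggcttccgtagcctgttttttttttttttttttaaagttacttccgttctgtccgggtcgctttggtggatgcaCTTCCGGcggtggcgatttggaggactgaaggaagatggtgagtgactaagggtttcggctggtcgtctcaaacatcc
Psmd2: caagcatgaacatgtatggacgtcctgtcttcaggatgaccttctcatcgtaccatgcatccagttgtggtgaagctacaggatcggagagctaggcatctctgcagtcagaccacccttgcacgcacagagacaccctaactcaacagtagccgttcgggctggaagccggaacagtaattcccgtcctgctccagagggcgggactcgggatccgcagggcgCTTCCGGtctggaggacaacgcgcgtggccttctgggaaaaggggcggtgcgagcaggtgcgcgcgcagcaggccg

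Psmb5 carried the antioxidant response element as TGACGTCGC, 47 bases before its start. Psmc1 and Psmd2 carried the ETS motif in reverse (CTTCCGG), 28 and 26 bases before their starts, and Psma7 and Psmc1 each a CCAAT box, 196 and 175 bases before. Promoter entries were matched for 25 of the 31 genes; Psmb1, Psmb2, Psmb7, Psmc3, Psmd3 and Psmd7 had none. The ETS motif was found in 11 of 27 windows of these 25 genes (40.7%), against 8.86% of all 32851 windows and 18.5% of the 11020 windows of genes tested in the bleomycin comparison. It lay in 9 of 14 genes of the 19S particle (Psmc1, Psmc2, Psmc6, Psmd2, Psmd4, Psmd6, Psmd11, Psmd12 and Psmd13) and in 1 of 11 genes of the 20S core (Psma6). The antioxidant response element was found in Psmb5, Psmb6, Psmc6 and Psmd12, or 14.8% of the windows against 14.3% of those of tested genes. The CCAAT box was found in 37.0% of the windows, against 37.2%. A match describes the letters of the window, not a bound site.

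Sequencing depth was 10493574 to 15727139 counts per poly(A) library and 3295257 to 6333166 per total-RNA library. Genes with a count numbered 17108 to 19763 in the naive and 13940 to 17112 in the bleomycin libraries. At similar depth, naive 1 had 19763 (3295257 counts) and bleomycin 4 had 13940 (3299824 counts). The bearing of this difference on the subunit estimates was not tested. The summed share of the 31 genes was 0.182% to 0.201% per vehicle or ISRIB library. It was 0.109% to 0.124% per naive library and 0.147% to 0.212% per bleomycin library. Every one of the 31 genes passed the filter on low counts in both experiments. The lowest single value was 184 counts in the poly(A) libraries and 11 counts in the total-RNA libraries, both for Psma5. Markers of AT2 cells were abundant in every library, with the 9 listed markers summing to 210754 to 219651 CPM in the poly(A) libraries and 51518 to 97219 CPM in the total-RNA libraries. CPM are counts scaled to a library size of 10 to the power 6 after TMM scaling for composition.

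Levels per kilobase of transcript set the subunits apart within a library. In the vehicle libraries, the catalytic subunit Psmb6 stood highest at 95.8 ± 2.51 CPM per kb (SD, n = 4), next to the beta subunit Psmb4 at 90.9 ± 3.25. Their ranges overlapped (92.7 to 98.8 and 86.1 to 93.1). The alpha subunits Psma3 (14.3 ± 0.593) and Psma5 (15.5 ± 1.18) stood lowest, and their ranges overlapped too. The place of Psma3 depends on its assigned length of 2846 bases, against 1239 for Psma5. Before division by length, Psma3 had 40.6 and Psma5 19.2 CPM in vehicle libraries. In the naive total-RNA libraries, the ubiquitin receptor Psmd4 stood highest at 57.3 ± 3.58 CPM per kb, followed by Psmb6 at 45.7 ± 5.95, without overlap. Psma5 again stood lowest at 5.16 ± 1.08. The levels per kilobase rest on the length of 1 principal transcript per gene, the longest where several ranked equally, and were not compared between kits.

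ISRIB against vehicle asked what 24 h of the drug changed in AT2 cells of uninjured mice. None of the 31 subunit genes passed the test (edgeR, adjusted p under 0.05 over all genes tested), beside 265 of 12054 genes tested, or 2.2% (1.1% higher and 1.1% lower). Before adjustment, 2 subunit genes had a p under 0.05, Psmd14 and Psmd1, both with estimates below 0, against 16% of all genes in either direction and 8.11% below 0. DESeq2 and limma-voom also called none. The log2 fold changes ran from -0.21 to 0.12 with a median of -0.03, against -0.00014 for all genes tested, and 12 of the 31 lay above 0. The SE of a single gene was 0.05 to 0.09 on the log2 scale.

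**Figure D1:**
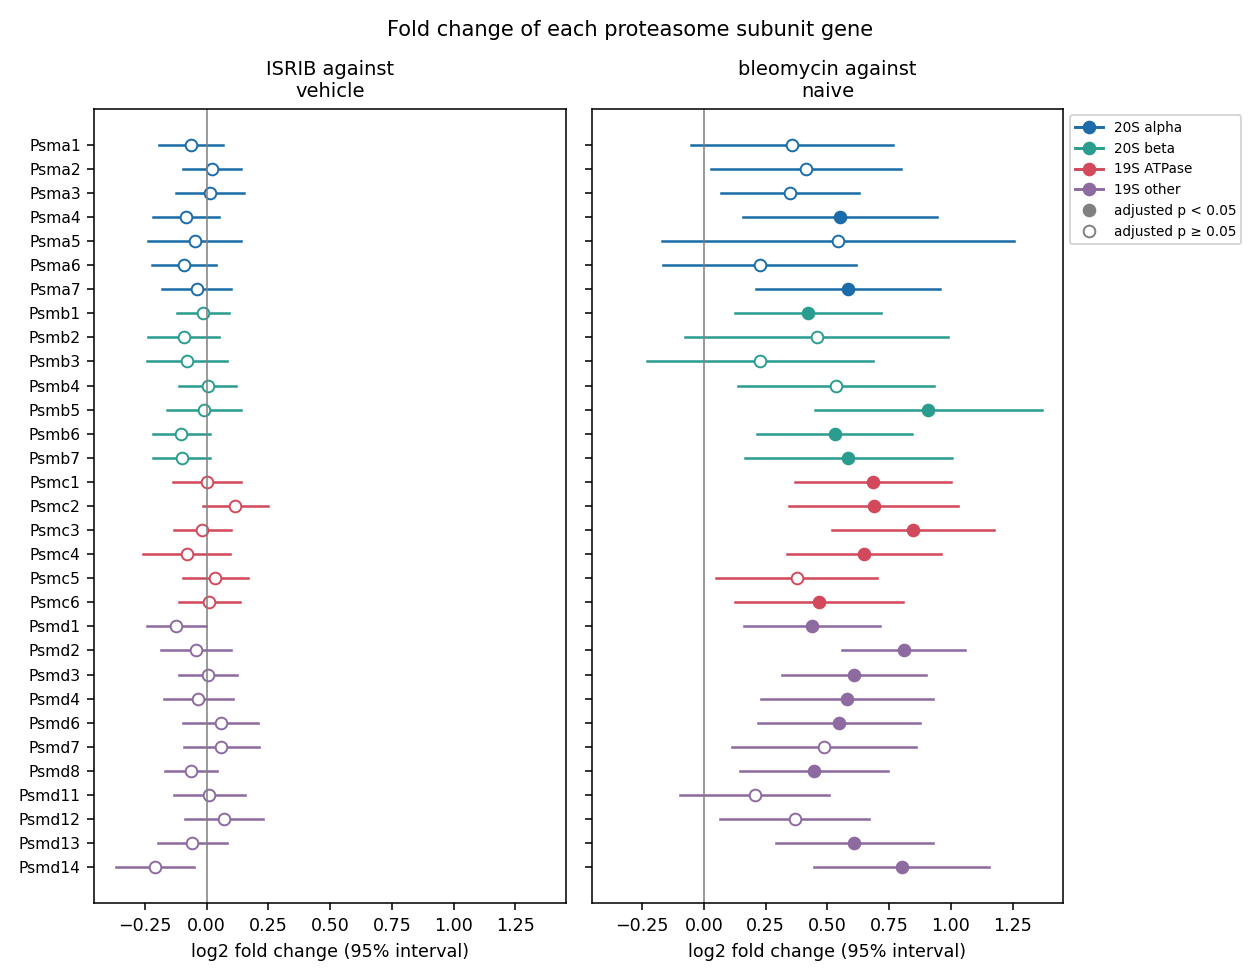
Log2 fold change (x axis) of each of the 31 subunit genes (y axis) with its 95% interval, after ISRIB (left) and after bleomycin (right), coloured by structural class; filled points had an adjusted p under 0.05. The points after ISRIB lie on both sides of 0 and none is filled, and those after bleomycin all lie to the right of 0 with 19 filled.

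By structural class, the median log2 fold change after ISRIB was -0.05 for the alpha subunits (2 of 7 above 0), -0.08 for the beta subunits (1 of 7), 0.01 for the ATPases (4 of 6) and -0.03 for the other 19S subunits (5 of 11). The median of the other 19S subunits lay just above 0 without ISRIB 1 (0.0035) or without vehicle 1. Summed over the 20S core, the level was 841, 829, 817 and 846 CPM in vehicle 1 to 4 and 809, 816, 788 and 815 CPM in ISRIB 1 to 4. All 4 ISRIB sums lay below all 4 vehicle sums, at 807 ± 12.7 against 833 ± 12.996 CPM (SD, n = 4 each). The mean log2 level of the 20S genes, which weights them equally, overlapped between the groups (-0.03 to 0.02 in vehicle and -0.09 to -0.03 in ISRIB libraries, relative to the vehicle mean). The 19S sums overlapped, at 1098 ± 44.7 against 1115 ± 34.5 CPM. The mean log2 level of the ATPases minus that of the alpha subunits was -0.01 to 0.03 in vehicle libraries and 0.03 to 0.07 in ISRIB libraries. That of the whole 19S particle minus the 20S core was -0.03 to 0.02 against -0.0038 to 0.07 and overlapped. These are descriptions of small shifts in classes in which no gene was called.

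The 20S genes with full values after ISRIB were the 3 catalytic subunits and the extremes of each ring. Psmb5, the chymotrypsin-like subunit, had 34.8, 33.4, 37.2 and 36.3 CPM in vehicle 1 to 4 and 35.6, 37.6, 32.6 and 34.6 in ISRIB 1 to 4 (log2 fold change -0.01, 95% interval -0.16 to 0.14). Psmb6, the caspase-like subunit, had 78.8, 76.7, 76.2 and 73.9 CPM in vehicle and 73.1, 68.7, 68.1 and 74.7 in ISRIB libraries (-0.10, -0.22 to 0.01). Psmb7, the trypsin-like subunit, had 78.2, 75.3, 75.8 and 78.6 CPM in vehicle and 76.4, 69.6, 71.1 and 69.5 in ISRIB libraries (-0.10, -0.22 to 0.01). For all 3 catalytic subunits the groups overlapped and the interval included 0. The highest beta estimate belonged to Psmb4, with 110.1, 109, 102 and 109 CPM in vehicle and 105, 112, 107 and 107 in ISRIB libraries (log2 fold change 0.0048). Among the alpha subunits, Psma2 had the highest estimate (0.02), with 73.7, 72.8, 81.6 and 76.5 CPM in vehicle and 75.0, 78.7, 81.0 and 74.5 in ISRIB libraries. Psma6 had the lowest (-0.09), with 59.5, 61.8, 64.4 and 68.1 CPM against 58.0, 56.6, 60.5 and 63.3. Both alpha subunits overlapped between the groups.

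In the 19S particle, the lid deubiquitinase Psmd14 (ENSMUSG00000026914, chr2:61711694-61800376 in GRCm38) was the single subunit gene whose groups did not overlap after ISRIB, beside 4.39% of all genes tested with all ISRIB values below and 4.26% with all above. It had 34.0, 32.8, 32.9 and 35.6 CPM in vehicle 1 to 4 and 30.8, 27.0, 27.4 and 31.6 in ISRIB 1 to 4. Its log2 fold change of -0.21 (SE 0.07, 95% interval -0.37 to -0.05) had an edgeR p of 0.0122 and did not pass after adjustment (0.169). Psmd1, a scaffold of the base, had an estimate of -0.12 (edgeR adjusted p 0.289). The gene overlaps exons of Htr2b on the opposite strand (252 bases) and of Gm21972 on the same strand (301 bases). The highest estimate of all 31 belonged to the ATPase Psmc2, with 62.1, 54.4, 56.1 and 58.7 CPM in vehicle and 58.6, 64.5, 63.0 and 64.8 in ISRIB libraries (0.12, 95% interval -0.01 to 0.25). The ATPase Psmc4 had the lowest of its class (-0.08), with 40.8, 36.1, 35.0 and 43.2 CPM against 35.4, 37.8, 32.7 and 40.2. Psmd12 of the lid had the highest of the other 19S subunits (0.07), with 41.6, 37.4, 34.2 and 38.4 CPM against 39.8, 41.4, 36.2 and 41.4. The groups overlapped for Psmc2, Psmc4 and Psmd12.

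Bleomycin against naive asked how the AT2 transcriptome differed 14 days after lung injury. All 31 subunit genes had estimates above 0, against 50.2% of the 11223 genes tested. Of the 31, 19 rose (edgeR, adjusted p under 0.05) and none fell, beside 20.5% of all genes called, 11.2% higher and 9.31% lower. The median log2 fold change of the 31 was 0.53, or 1.45-fold, against 0.0026 for all genes tested, and the estimates ran from 0.21 for Psmd11 to 0.91 for Psmb5. For 13 genes all 5 bleomycin values lay above all 4 naive values, beside 10.4% of all genes, and for none did they all lie below, beside 9.35%. At an unadjusted p under 0.05 there were 25 of the 31, against 33.3% of all genes. Without naive 4 the number called was 10, and without naive 1 or naive 3 it was 11, while every estimate stayed above 0. Over all genes, leaving out 1 library gave 1554 to 2584 calls in either direction. The 9 genes called whichever library was left out, and under each other method tried, were Psmb5, Psmc1 to Psmc4, Psmd2, Psmd3, Psmd13 and Psmd14.

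Summed over the 31 genes, the level was 1209 ± 44.4 CPM in the naive (SD, n = 4) and 1761 ± 218 CPM in the bleomycin libraries (SD, n = 5). The sums were 1208, 1234, 1247 and 1147 CPM in naive 1 to 4 and 1515, 2042, 1748, 1911 and 1592 CPM in bleomycin 1 to 5. No bleomycin library reached down to the naive range, and bleomycin 2 was the highest. By class, the genes called were 2 of 7 alpha subunits (median log2 fold change 0.41), 4 of 7 beta subunits (0.53), 5 of 6 ATPases (0.67) and 8 of 11 other 19S subunits (0.55). This made 6 of 14 genes in the 20S core (median 0.49) and 13 of 17 in the 19S particle (0.58), beside 11.2% of all genes called higher. The SE of a single gene was 0.13 to 0.34 in the 20S core and 0.12 to 0.18 in the 19S particle. The counts of calls therefore do not compare the size of the rise. The difference between the particles was not tested, and by library it overlapped between the groups. The mean log2 level of the 19S genes minus that of the 20S genes, each relative to its naive mean, was 0.03, -0.15, -0.03 and 0.15 in naive 1 to 4 and 0.14, 0.02, -0.04, 0.34 and 0.02 in bleomycin 1 to 5. The ATPases minus the alpha subunits gave -0.25 to 0.10 in the naive and -0.01 to 0.45 in the bleomycin libraries, also with overlap.

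**Figure D2:**
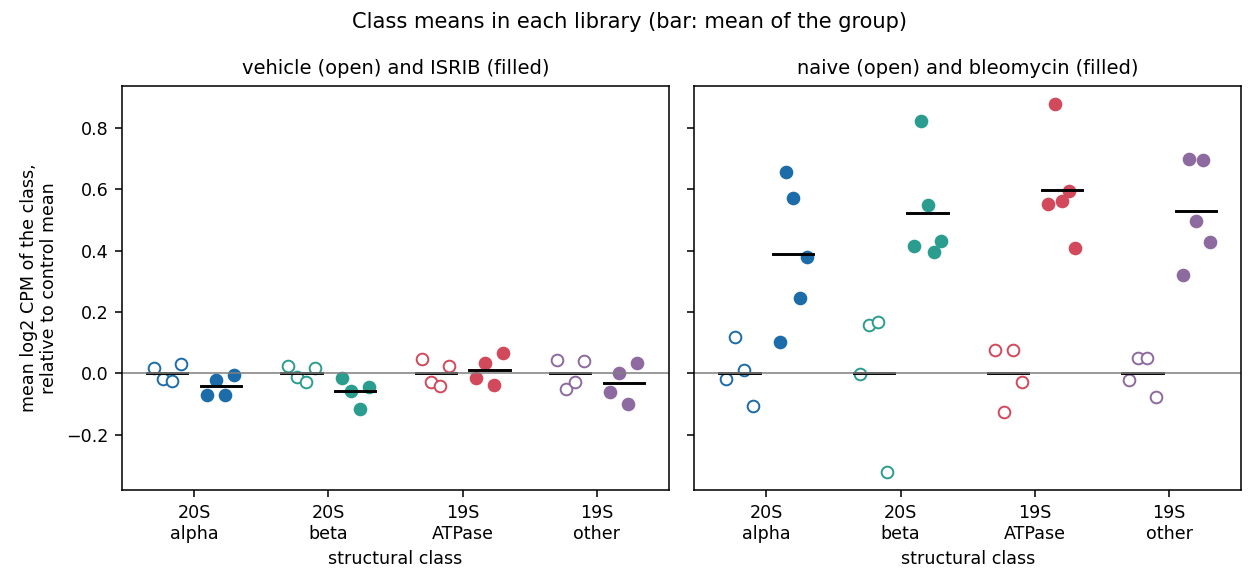
Mean log2 CPM of each structural class in each library, relative to the mean of the control group (y axis), for vehicle and ISRIB (left) and naive and bleomycin (right); black bars are group means. After bleomycin the ATPases (0.41 to 0.88), the other 19S subunits (0.32 to 0.70) and the beta subunits (0.40 to 0.82) lie above all naive libraries in every bleomycin library, and the alpha subunits (0.10 to 0.66) overlap the naive range (-0.11 to 0.12).

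The libraries differed in how evenly the subunits rose. The SD over the 31 genes of the log2 level relative to the naive mean was 0.46 in bleomycin 4 and 0.36 in bleomycin 1, against 0.18 to 0.24 in the other 3 bleomycin libraries and 0.14 to 0.20 in the naive libraries. In bleomycin 4 the alpha subunits alone had an SD of 0.72. That library had the fewest genes with a count (13940), and Psma5 stood at 11 counts in it. In naive 4, the beta subunits averaged -0.32, below the other naive libraries (-0.0036 to 0.17).

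Among the alpha subunits, Psma7 and Psma4 rose. They were called in 13 and 9 of 16 settings, counting the main fit, its alternatives and each library left out. Psma7 had 39.2, 41.9, 35.1 and 34.3 CPM in naive 1 to 4 and 36.2, 60.1, 56.4, 78.3 and 52.3 CPM in bleomycin 1 to 5. Bleomycin 1 lay within the naive range and the other 4 above it (log2 fold change 0.58, SE 0.18, edgeR adjusted p 0.0251). Psma4 went from 50.3 ± 3.94 to 74.0 ± 24.3 CPM (log2 fold change 0.55, adjusted p 0.0426), and its exons overlap AY074887 on the opposite strand. The smallest estimate belonged to Psma6, with 29.9, 29.1, 24.9 and 23.5 CPM in the naive and 20.6, 38.8, 37.6, 30.3 and 28.8 CPM in the bleomycin libraries. Its interval of -0.16 to 0.62 included 0, and the groups overlapped. Psma1 (0.36), Psma2 (0.41), Psma3 (0.35) and Psma5 (0.54) did not pass the test either. Psma3 was the one alpha subunit with separate groups (38.1 ± 1.06 to 48.4 ± 5.37 CPM, adjusted p 0.0705).

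All 3 catalytic beta subunits rose in the main fit. Psmb5 was called in 16, Psmb6 in 14 and Psmb7 in 8 of the 16 settings. Psmb5 (ENSMUSG00000022193, chr14:54614119-54618022), whose active site is the main target of proteasome inhibitors, had 10.4, 10.04, 10.2 and 7.15 CPM in naive 1 to 4. In bleomycin 1 to 5 it had 15.3, 21.7, 17.2, 15.5 and 18.8 CPM. The groups were separate and this was the highest estimate of the 31 genes (log2 fold change 0.91, SE 0.22, 1.88-fold, adjusted p 0.00634). It shares exon bases with the microRNA gene Mir686 on the same strand. Psmb6 had 37.9, 42.5, 33.6 and 31.9 CPM in the naive and 48.1, 62.4, 60.4, 45.2 and 47.0 CPM in the bleomycin libraries, without overlap (0.53, SE 0.15, adjusted p 0.0165). Psmb7 had 26.8, 25.0, 27.3 and 19.7 CPM in the naive and 39.7, 53.2, 36.7, 29.4 and 26.0 CPM in the bleomycin libraries (0.59, SE 0.20, adjusted p 0.0450). Bleomycin 5 lay within the naive range, and Psmb7 exons overlap those of Nek6 on the opposite strand.

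Of the 4 non-catalytic beta subunits, Psmb1 rose (0.42, adjusted p 0.0397) and was called in 10 of the 16 settings. Psmb4 had a similar estimate to Psmb6 (0.53) and missed the threshold at an adjusted p of 0.0519. Psmb2 had an estimate of 0.46 with a coefficient of variation of 36.7% in the naive libraries (adjusted p 0.219). The lowest of the class was Psmb3, with 18.1, 19.02, 15.01 and 13.4 CPM in the naive and 15.9, 26.2, 18.7, 21.7 and 13.8 CPM in the bleomycin libraries. Its groups overlapped (0.23, 95% interval -0.23 to 0.68).

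Of the ATPases, 5 rose, and for 4 of these the groups were separate. Psmc3 (ENSMUSG00000002102, chr2:91054009-91066369) had 58.7, 48.5, 60.7 and 51.3 CPM in naive 1 to 4 and 87.6, 109.7, 84.2, 134 and 77.9 CPM in bleomycin 1 to 5 (log2 fold change 0.85, SE 0.16, adjusted p 0.000843). Bleomycin 4 was the highest, and the gene shares exon bases with Slc39a13 on the opposite strand. Psmc1 had 52.7, 49.8, 56.1 and 43.8 CPM in the naive and 65.9, 100.3, 79.4, 96.8 and 64.6 CPM in the bleomycin libraries (0.68, SE 0.15, adjusted p 0.00359). Psmc2 had 37.6, 32.9, 34.5 and 31.9 CPM in the naive and 59.5, 74.7, 45.7, 43.3 and 51.5 CPM in the bleomycin libraries (0.69, SE 0.16, adjusted p 0.00601). For both, bleomycin 2 was the highest library. Psmc4 had 33.9, 25.2, 30.0 and 31.3 CPM in the naive and 49.2, 53.6, 47.9, 38.1 and 45.9 CPM in the bleomycin libraries (0.65, SE 0.15, adjusted p 0.00450). Psmc6 rose with overlapping groups (0.47, adjusted p 0.0485) and was called in 7 of the 16 settings. Psmc5, the one ATPase that did not pass, had 36.9, 31.6, 45.9 and 39.0 CPM in the naive and 49.5, 52.5, 46.9, 61.3 and 39.3 CPM in the bleomycin libraries. Bleomycin 5 lay within the naive range (0.38, 95% interval 0.05 to 0.70, adjusted p 0.0948).

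**Figure D3:**
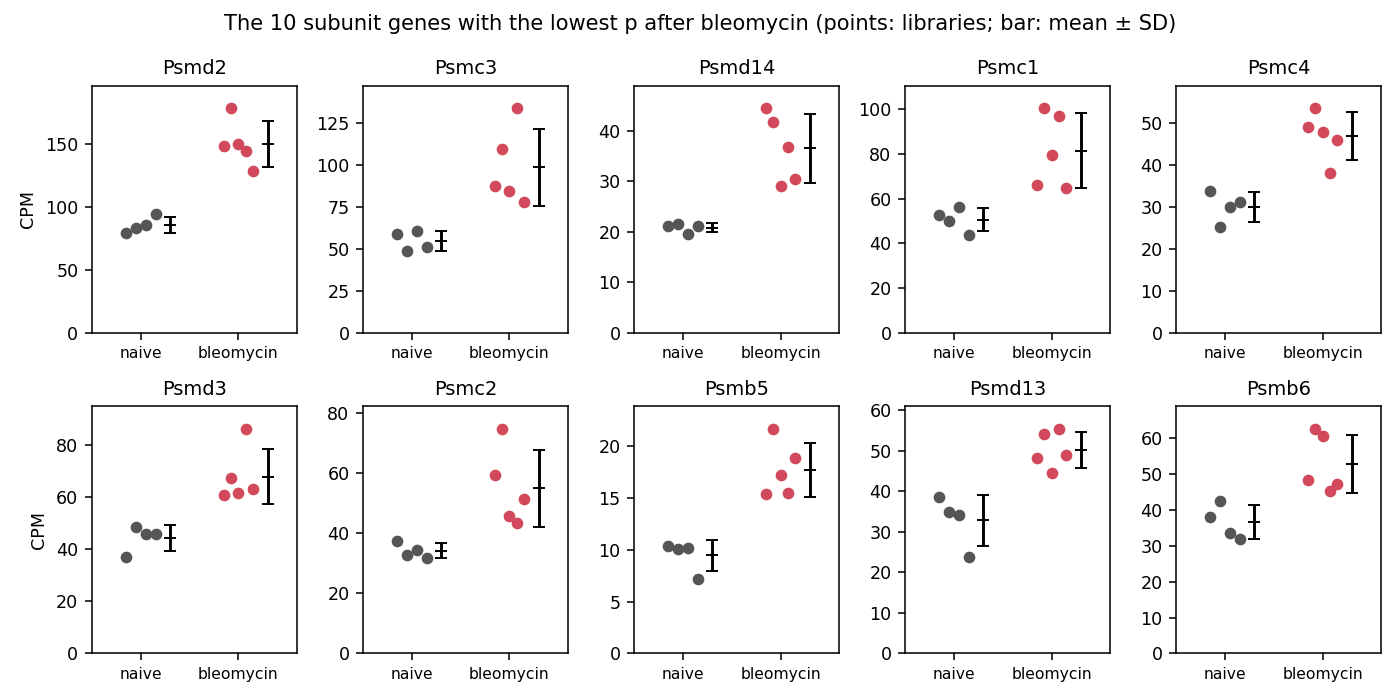
CPM (y axis, from 0) in each naive (grey) and bleomycin (red) library for the 10 subunit genes with the lowest p after bleomycin, with mean and SD beside the points. In every panel all 5 bleomycin points lie above all 4 naive points.

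Among the other 19S subunits, Psmd2 (ENSMUSG00000006998, chr16:20651652-20663414), the base scaffold that docks ubiquitin-like domains, had the lowest p of all 31 genes. It had 79.5, 83.1, 85.6 and 94.5 CPM in naive 1 to 4 and 149, 178, 150.2, 144 and 129 CPM in bleomycin 1 to 5. The groups did not overlap (log2 fold change 0.81, SE 0.12, 1.75-fold, adjusted p 0.000105). The deubiquitinase Psmd14 had 21.1, 21.6, 19.5 and 21.2 CPM in the naive and 44.4, 41.7, 29.1, 36.8 and 30.4 CPM in the bleomycin libraries (0.80, SE 0.17, adjusted p 0.00270). The naive libraries of Psmd14 varied least of its class (coefficient of variation 4.37%). The lid subunit Psmd3 had 36.9, 48.3, 45.6 and 45.6 CPM in the naive and 60.6, 67.1, 61.3, 86.0 and 63.2 CPM in the bleomycin libraries (0.61, SE 0.14, adjusted p 0.00473). Psmd13, also of the lid, had 38.6, 34.8, 34.2 and 23.8 CPM in the naive and 48.1, 54.1, 44.6, 55.4 and 48.9 CPM in the bleomycin libraries (0.61, SE 0.15, adjusted p 0.00811). Psmd13 shares exon bases with Sirt3, and Psmd3 with Gm12356, on the opposite strand.

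The ubiquitin receptor Psmd4 rose from 76.3 ± 4.77 to 114.5 ± 33.0 CPM (adjusted p 0.0183). The lid subunits Psmd6 (0.55) and Psmd8 (0.45) and the base subunit Psmd1 (0.44) rose as well. Psmd7, the partner of Psmd14 in the lid, had an estimate of 0.48 and missed the threshold (adjusted p 0.0597). Psmd12 had an estimate of 0.37 (adjusted p 0.0775). The lowest estimate of all 31 genes belonged to Psmd11, with 51.0, 45.5, 56.1 and 49.8 CPM in the naive and 42.3, 68.9, 59.8, 60.6 and 58.9 CPM in the bleomycin libraries. Bleomycin 1 was the lowest of all 9 libraries for Psmd11 (0.21, 95% interval -0.10 to 0.51, adjusted p 0.339).

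No source used here says whether the counting used strand, so reads of an overlapping gene on the other strand cannot be told apart. Of the 31 genes, 7 share exon bases with such a gene (Psma4, Psma5, Psmb7, Psmc3, Psmd1, Psmd3 and Psmd13). Of the other 24, 13 rose after bleomycin (median log2 fold change 0.48), beside 11.2% of all genes tested called higher.

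Other genes of the ubiquitin-proteasome pathway were taken from 10 lists of 52 genes, 49 of which were tested. After bleomycin 12 rose and 0 fell, beside 11.2% of all genes called higher and 9.31% lower. After ISRIB 1 rose and 0 fell, beside 1.1% of all genes in each direction, so that the share after ISRIB was near that of all genes.

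After bleomycin, the pathway genes that rose included subunits and regulators of the proteasome itself. Psmb8, the immunoproteasome counterpart of Psmb5, had 17.4, 15.2, 20.1 and 19.1 CPM in the naive and 31.2, 49.3, 40.9, 29.1 and 27.6 CPM in the bleomycin libraries (log2 fold change 1.00, SE 0.20, adjusted p 0.00152). The groups were separate, and its exons overlap Gm20496 on the opposite strand. The other immunoproteasome subunits had estimates above 0 that did not pass (Psmb9 0.75, adjusted p 0.205; Psmb10 0.36, adjusted p 0.494). Of the alternative caps, the 11S subunit Psme1 (0.75), the nuclear 11S cap Psme3 (0.46) and the activator Psme4 (0.36) rose, 3 of 5 on that list, and Psme1 shares exon bases with Emc9 on the opposite strand. The 19S ubiquitin receptor Adrm1 rose (0.63) and the small lid subunit Sem1 did not (0.09, adjusted p 0.715). The 20S maturation factor Pomp (0.59) was the 1 of 5 core assembly chaperones that passed. Of the 19S assembly chaperones, 0 of 3 tested passed. Of the bound ubiquitin enzymes and accessory proteins, 0 of 5 passed.

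Upstream of the proteasome, 2 of 6 genes of the p97 segregase list rose after bleomycin, the ATPase Vcp itself (0.78) and its cofactor Nploc4 (0.79). Vcp, which extracts ubiquitinated proteins from membranes and complexes, had 75.1, 113, 85.9 and 89.1 CPM in the naive and 148, 169, 156, 151 and 156 CPM in the bleomycin libraries (SE 0.12, adjusted p 0.000218). The groups were separate, and Vcp shares exon bases with 1700022I11Rik on the opposite strand. Of the shuttle factors, which carry ubiquitinated proteins to the 19S particle, Rad23b (0.40) and Ubqln1 (0.45) rose, 2 of 7. Of the ubiquitin genes and E1 enzymes, the polyubiquitin gene Ubb rose (0.48), 1 of 5. Of 8 regulators of proteasome transcription, Nfe2l2 rose, with 189, 197, 186 and 186 CPM in the naive and 251, 267, 287, 245 and 259.6 CPM in the bleomycin libraries (0.47, SE 0.10, adjusted p 0.00346). Nfe2l1 RNA had 193, 202, 217 and 223 CPM in the naive and 209.8, 198, 240.0, 223 and 225 CPM in the bleomycin libraries. Its groups overlapped (0.07, adjusted p 0.695), and RNA levels do not report the processing of the NFE2L1 protein.

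After ISRIB, the gene of these lists that rose was Ddi2, the protease that activates NFE2L1. It had 56.2, 64.9, 67.3 and 69.1 CPM in vehicle 1 to 4 and 81.2, 92.6, 91.5 and 96.7 CPM in ISRIB 1 to 4 (log2 fold change 0.49, SE 0.07, edgeR adjusted p 0.00305). The groups were separate. Ddi2 shares exon bases with Rsc1a1 on the same strand. In the bleomycin comparison its estimate was -0.22 (adjusted p 0.270).

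**Figure D4:**
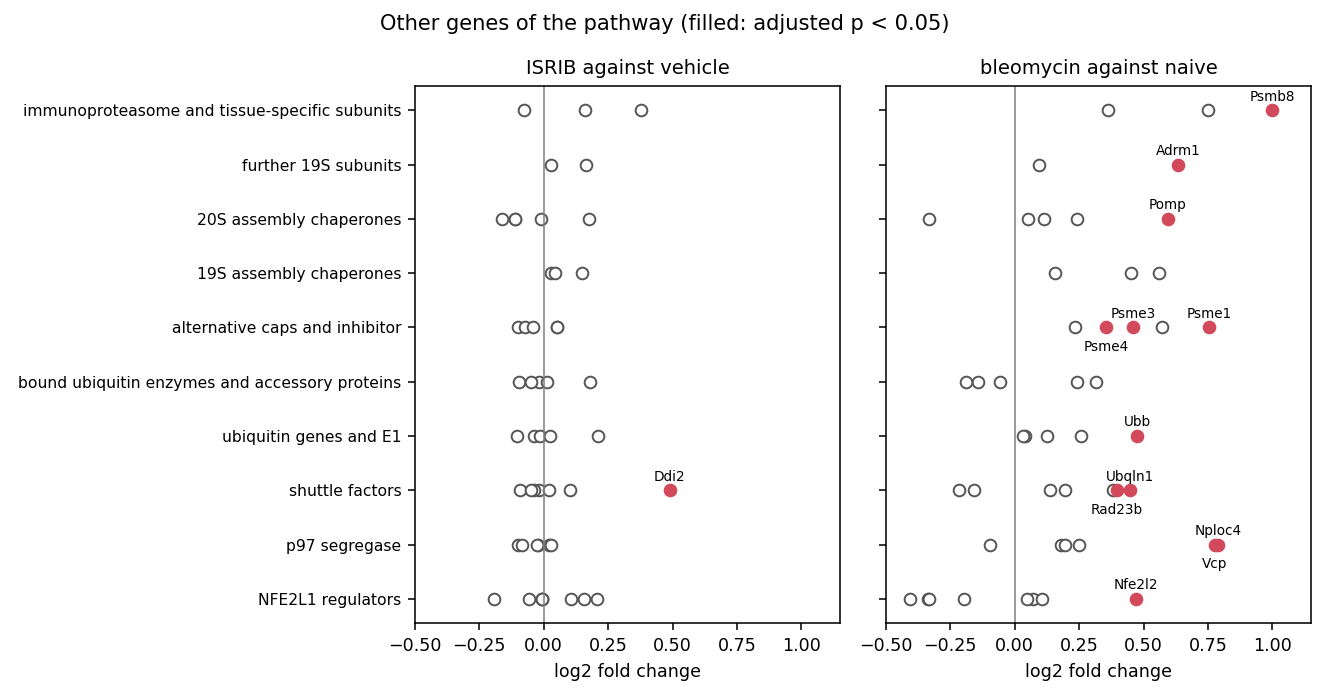
Log2 fold change (x axis) of the tested pathway genes outside the 31 subunits, by list (y axis), after ISRIB (left) and bleomycin (right); filled, named points had an adjusted p under 0.05. Ddi2 is filled on the left, and 12 genes, all right of 0, on the right.

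Markers of other cell states and types also moved after bleomycin, a comparison in which 11.2% of all genes were called higher. Of 8 cycling-cell genes tested, 6 rose, and their list summed to 57.5 to 105 CPM in the naive and 329 to 529 CPM in the bleomycin libraries. Of the alveolar type 1 cell markers 7 of 8 rose (1390 to 1616 against 2106 to 2640 CPM). Fibroblast markers rose for all 3 tested of 7 listed (3.87 to 10.1 against 17.5 to 115 CPM, highest in bleomycin 2), with Lum at 0 in every library. The endothelial Cdh5 and the airway Foxj1 rose, 1 of 4 and 1 of 5 tested. Macrophage and monocyte markers summed to 10.5 to 14.4 against 9.82 to 14.8 CPM, 0 of 3 tested were called, and Marco and C1qa were at 0 in every library. Lymphocyte markers were below the filter. Of the 9 AT2 markers, Napsa and Cd74 rose and none fell. The other 7 had estimates below 0 that did not pass, among them Sftpc at -0.44 (adjusted p 0.0870) and Abca3 at -0.26 with separate groups (adjusted p 0.106), and the median of the list was -0.16. The list summed to 88024 to 97219 CPM in the naive and 51518 to 96529 CPM in the bleomycin libraries. Without bleomycin 2, the library with the highest sum of fibroblast markers, 14 subunit genes were called higher, with a median log2 fold change of 0.43. Leaving out any 1 library gave medians of 0.43 to 0.57. Bleomycin 2 also had the highest sum of the 31 subunit genes (2042 CPM), so the fit without it cannot tell these apart. The part of other cell states and types in the rise of the subunit genes was not tested. In bulk RNA, more cells of a type and more RNA per cell cannot be told apart. After ISRIB, the one marker called was the cycling gene Mcm6, which fell by 0.37 on the log2 scale.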

How the data were processed

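The authors deposited 1 table of unnormalised counts for each kit; whole numbers with unequal library totals in the tables gave this unit. Per the submitters' processing notes, bcl2fastq 2.19.1, FastQC, Trimmomatic 0.36, STAR 2.6.0, HTSeq 0.11.2 and the mm10 build were used; for annotation and strand setting, the sources used here give nothing. Symbols, positions and principal transcript lengths came from GENCODE (GRCm38), matched by gene ID, and promoter windows from RefSeq.

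Low-count genes were removed by filterByExpr with a minimum count of 10 and a minimum total of 15, and TMM factors were applied. All remaining genes of a comparison were fitted at once in edgeR 4.0.16 (R 4.3.3) with its two-sided quasi-likelihood F test on group. Benjamini-Hochberg adjustment covered those genes, with calls made under 0.05. The SE was obtained from the unshrunk log2 fold change and its F statistic, and 95% intervals use the moderated degrees of freedom. CPM use effective library sizes. The spread between replicate libraries beyond counting noise (edgeR's common coefficient of variation) was 7.66% in the ISRIB and 21.1% in the bleomycin comparison. Alternatives were RLE factors, no filter, DESeq2 1.42.0, limma-voom 3.58.1, protein-coding genes alone, a replicate block and leaving out each library.

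Members described in full were, in each comparison, the called ones up to the 10 with the lowest p, Psmb5, Psmb6, Psmb7, Psmd14, and the highest and lowest log2 fold change in each of the 4 structural classes. Psmd1 after ISRIB, and subunits named with an estimate alone, were added after their values were seen. Pathway genes were counted by list and named where called; Sem1, Psmb9, Psmb10 and Nfe2l1, and Ddi2 after bleomycin, were added likewise. One gene of these lists is not reported here. Paaf1 was not matched, and Psmb11 and Psma8 were below the filter. The members and lists were chosen with earlier results of these data known. No test was made on a sum or mean over the members.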

Additional observations from a re-analysis of the deposited data

Results flagged for a closer look

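In 4 of the 124 combinations of subunit gene and group, 1 library stood far from the rest, by Dixon's criterion at the 95% level. Chance alone flags about 1 in 20 such groups. Psmb4 was at 101.8 CPM in vehicle 3, against 109 to 110.1 in the other vehicle libraries. Psmc6 was at 39.5 CPM in vehicle 1, against 42.7 to 43.0. Psmb5 was at 7.15 CPM in naive 4, against 10.04 to 10.4 in the other naive libraries. Psmd3 was at 86.0 CPM in bleomycin 4, against 60.6 to 67.1 in the other bleomycin libraries.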

How the results depend on the processing

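Every subunit gene kept an estimate above 0 after bleomycin in all 16 settings run, and none was called after ISRIB in any setting run. After bleomycin the number called higher was 19 with RLE factors, 21 without a filter, 20 by DESeq2, 16 by limma-voom and 18 with protein-coding genes alone, and 10 to 22 when 1 library was left out. The median log2 fold change of all subunits was then 0.43 to 0.57 and that of the other 19S subunits 0.46 to 0.62. Over all genes, 2304 were called in either direction after bleomycin with RLE factors, 2589 without a filter and 2526 by DESeq2. There were 2202 by limma-voom, 2182 with protein-coding genes alone and 1554 to 2584 when 1 library was left out. Without a filter the median of all genes tested moved to -0.27 in that comparison. The number of all genes called after ISRIB was 648 without a filter and 86 to 269 when 1 library was left out, and the medians were then -0.0394 to -0.00271 for all subunits, -0.0775 to -0.00903 for the alpha subunits, -0.114 to -0.0289 for the beta subunits, 0.000612 to 0.0210 for the ATPases and -0.0519 to 0.00348 for the other 19S subunits, whose sign turned without ISRIB 1 or vehicle 1.

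Replicate numbers are shared between groups, and the labels do not say that they mark a shared source. Same-number correlations were -0.11 to 0.08 in the ISRIB and -0.04 to 0.05 in the bleomycin comparison. Of the control libraries, 2 of 4 and 0 of 4 correlated best with their own number. With 4 shared numbers in each comparison, these values cannot settle whether the libraries were paired. With the replicate number as a block, 277 genes were called after ISRIB and 2099 after bleomycin, with 0 and 18 subunit genes.

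The sign of 13 estimates near 0 after ISRIB turned in some settings. That of Psmc1 was -0.00075 without a filter, -0.0012 by limma-voom, -0.0011 with protein-coding genes alone and -0.0011 with the block. Leaving out 1 library gave ranges of -0.00142 to 0.0564 for Psma2, -0.0156 to 0.0417 for Psma3, -0.0816 to 1.62e-05 for Psma7, -0.0278 to 0.00323 for Psmb1, -0.0215 to 0.022 for Psmb4, -0.046 to 0.022 for Psmb5 and -0.046 to 0.0331 for Psmc1. For the other genes they were -0.0386 to 0.00985 for Psmc3, -0.0176 to 0.0238 for Psmc6, -0.0394 to 0.0547 for Psmd11, -0.101 to 0.00179 for Psmd2, -0.0188 to 0.0416 for Psmd3 and -0.0863 to 0.00721 for Psmd4. The cause was not tested. After bleomycin, 47 single-gene values in 10 subunit genes lost their call and 12 in 7 genes gained one. The interval of Psma5, at 11 counts in its lowest library, was the widest.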
